A study of Homo sapiens with 22 samples.

Results

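A set of 8 genes of lipid synthesis was followed by their symbols in the RNA sequencing (RNA-seq) tables of 2 acute myeloid leukemia (AML) cell lines. They were *SREBF2*, *INSIG1*, *HMGCS1*, *IDI1*, *FDFT1*, *SQLE*, *FASN* and *SCD*, 8 of the 20411 genes in each table, and all 8 passed the filter on low values in both lines. MOLM-13 and NB4 cells were treated for 48 hours with 2 μM FP54, or with dimethyl sulfoxide (DMSO) as vehicle, with 3 libraries per treatment and cell line. FP54 is a proteolysis-targeting chimera (PROTAC), a molecule that joins a ligand of FTO to a ligand of the E3 ligase VHL so that FTO is degraded. FTO removes the N6-methyladenosine (m6A) mark from RNA. MOLM-13 is an AML line with an MLL fusion and a *FLT3* internal tandem duplication, and NB4 is an acute promyelocytic leukemia line. Neither the labels nor the methods say whether the libraries of a group came from separate cultures, so p-values measure the spread between these libraries, which may be technical.

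Cholesterol is built from acetyl-CoA through mevalonate, isoprenoids, squalene and lanosterol, and fatty acids are built from the same acetyl-CoA by acetyl-CoA carboxylase and fatty acid synthase. Most enzymes of both routes are controlled by the sterol regulatory element binding proteins (SREBPs), transcription factors made as membrane precursors. When sterols are scarce, SCAP carries the precursor from the endoplasmic reticulum to the Golgi, where proteases release the active factor. When sterols are plentiful, INSIG proteins hold SCAP back. *SREBF2* encodes SREBP-2, which acts mostly on sterol genes, and *SREBF1* encodes SREBP-1, which acts mostly on fatty acid genes.

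The sequences upstream of 4 of the genes are shown to let a reader see what the promoter of the transcription factor gene shares with those of its targets: SREBF2, INSIG1 (the sterol sensor), HMGCS1 (a sterol enzyme) and SCD (a fatty acid enzyme). Each is the 250 bases before the annotated start in RefSeq (GRCh38.p14), written 5′ to 3′ on the strand of the gene. The SREBF2 stretch lies at chr22:41832855-41833104 (plus strand), that of INSIG1 at chr7:155297628-155297877 (plus), that of HMGCS1 at chr5:43313413-43313662 (minus) and that of SCD at chr10:100346983-100347232 (plus). Capitals mark a sterol regulatory element core (TCACNCCAC), a CCAAT box (CCAAT, or ATTGG where it lies on the other strand) and an E-box (CACGTG), each searched on both strands.
SREBF2: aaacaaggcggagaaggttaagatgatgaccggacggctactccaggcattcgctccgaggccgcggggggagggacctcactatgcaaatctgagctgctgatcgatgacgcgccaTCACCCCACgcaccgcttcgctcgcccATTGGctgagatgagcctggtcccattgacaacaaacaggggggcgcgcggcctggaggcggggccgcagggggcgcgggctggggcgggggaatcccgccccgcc
INSIG1: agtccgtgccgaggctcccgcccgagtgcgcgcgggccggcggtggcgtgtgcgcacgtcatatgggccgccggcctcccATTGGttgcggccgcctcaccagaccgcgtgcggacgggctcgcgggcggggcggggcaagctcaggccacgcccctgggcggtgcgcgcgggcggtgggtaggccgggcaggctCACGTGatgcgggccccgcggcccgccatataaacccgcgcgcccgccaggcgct
HMGCS1: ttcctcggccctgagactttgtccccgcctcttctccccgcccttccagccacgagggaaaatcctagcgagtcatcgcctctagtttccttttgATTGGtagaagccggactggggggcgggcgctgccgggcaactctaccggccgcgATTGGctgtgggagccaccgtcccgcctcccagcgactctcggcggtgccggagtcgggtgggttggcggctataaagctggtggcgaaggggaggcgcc
SCD: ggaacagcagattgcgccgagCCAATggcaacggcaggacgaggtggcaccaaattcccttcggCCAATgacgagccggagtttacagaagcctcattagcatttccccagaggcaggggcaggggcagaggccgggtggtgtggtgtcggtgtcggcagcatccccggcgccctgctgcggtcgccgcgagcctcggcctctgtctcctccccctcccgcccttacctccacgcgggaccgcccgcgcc

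Windows were matched for 5 of the 8 genes (*SREBF2*, *INSIG1*, *HMGCS1*, *IDI1* and *SCD*), with 8 starts in all, and not for *FDFT1*, *SQLE* and *FASN*. The sterol regulatory element core stood in 1 of these 8 windows, that of *SREBF2*, from 133 to 125 bases before the start, and in 0.883% of all 35116 promoter windows. The CCAAT box, the site of the factor NF-Y, stood in 6 of the 8 windows and 32.0% of all windows, and all 5 genes had it before at least 1 of their starts. The GC box (GGGCGG), the site of SP1, stood in all 8 windows, against 42.6% of all windows. The E-box stood in that of *INSIG1* alone, against 6.34%, and the CARE core (TGATGNAA), read by ATF4 and C/EBP factors, in none of the 8, against 3.14%. Of the 16 genes of the wider sterol synthesis list below that had a window, 14 had a CCAAT box and 0 had the sterol regulatory element core in this strict spelling. Of the 30 genes of the fatty acid list that had a window, 18 had a CCAAT box and 3 the core. A match of letters is a description of the window and not a measured binding site.

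The library totals behind the RPKM values (read counts scaled by gene length and by library total, with total reads on genes as the library size) ranged from 5829730 to 19191055 reads in MOLM-13 and from 10595647 to 22344266 in NB4 cells. Each of the 3 FP54 libraries of NB4 was shallower than each DMSO library, and the FP54 library 2 of MOLM-13 was the shallowest of all. The lowest read number behind any value of the 8 genes was 288 (*IDI1* in NB4). The mean RPKM of 400 olfactory receptor genes, which are not expected in blood cells, was 0.00175 to 0.00387 in DMSO and 0.0509 to 0.0544 in FP54 libraries of NB4, and 0.00381 to 0.00833 over the MOLM-13 libraries. The lowest value of the 8 genes in any NB4 library was 6.33 RPKM. *FTO* mRNA, which does not report on a degrader of the protein, was 0.94 to 1.09 RPKM in DMSO and 0.90 to 1.13 in FP54 libraries of MOLM-13, and 2.52 to 2.86 and 1.95 to 2.11 in NB4. Of the lists of markers, *FLT3* (74.1 against 5.67 RPKM), *HOXA9* and *MEIS1* were higher in MOLM-13 DMSO libraries and *MPO* in those of NB4 (2170 against 16.1 RPKM), but 4 of the 5 genes listed for NB4, all of granule proteins, were lower there than in MOLM-13, *ELANE* (0.150 against 186 RPKM), *PRTN3* (61.0 against 413.5), *AZU1* (9.96 against 174) and *CTSG* (58.5 against 116), and *HOXA10*, listed for MOLM-13, was higher in NB4 (13.2 against 7.30). *MS4A1*, *PAX5* and *CD3E*, which define B and T cells, were at most 0.201 RPKM in every library, but other genes of those lists were not at 0. The summed RPKM of the 7 T and NK cell markers was 37.6 to 62.4 in DMSO and 87.7 to 95.3 in FP54 libraries of NB4, most of it *NKG7* (40.3 and 79.7 mean RPKM) and *CD3D* (6.35 and 10.3), and 71.9 to 78.9 over the MOLM-13 libraries. That of the 5 B cell markers was 4.26 to 6.36 and 7.29 to 7.46 in NB4, most of it *CD79B*. The part of these in the results below was not tested.

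In MOLM-13 cells, FP54 lowered 6 of the 8 genes. The largest decreases were those of *FASN* (to 27.4% of the DMSO mean), *HMGCS1* (39.6%) and *SCD* (42.4%), followed by *IDI1* (58.7%), *INSIG1* (65.0%) and *SQLE* (69.9%). *SREBF2* and *FDFT1* did not pass. The cutoff joined p below 0.01 in limma to a fitted change of 0.5 or more on log2(RPKM + 0.1), up or down, and 9.04% of the 9710 tested genes passed it in the lower direction and 9.30% in the higher. In NB4 cells 7 of the 8 were lowered, with *INSIG1* (27.6%), *HMGCS1* (29.0%) and *SCD* (34.8%) furthest, against 10.7% of 9853 tested genes called lower and 18.6% called higher. None of the 8 was called higher in either line. By an adjusted p below 0.05 alone, 6 and 8 of the 8 were lower, against 9.32% and 22.0% of tested genes. All 3 FP54 libraries lay below all 3 DMSO libraries for 7 of the 8 genes in MOLM-13, where 17.0% of tested genes did so, and for all 8 in NB4, where 26.2% did. With 3 libraries against 3, an exact permutation test of a single gene cannot give a p below 0.1. In bulk RNA, fewer cells of a kind and less RNA per cell cannot be told apart.

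**Figure D1:**
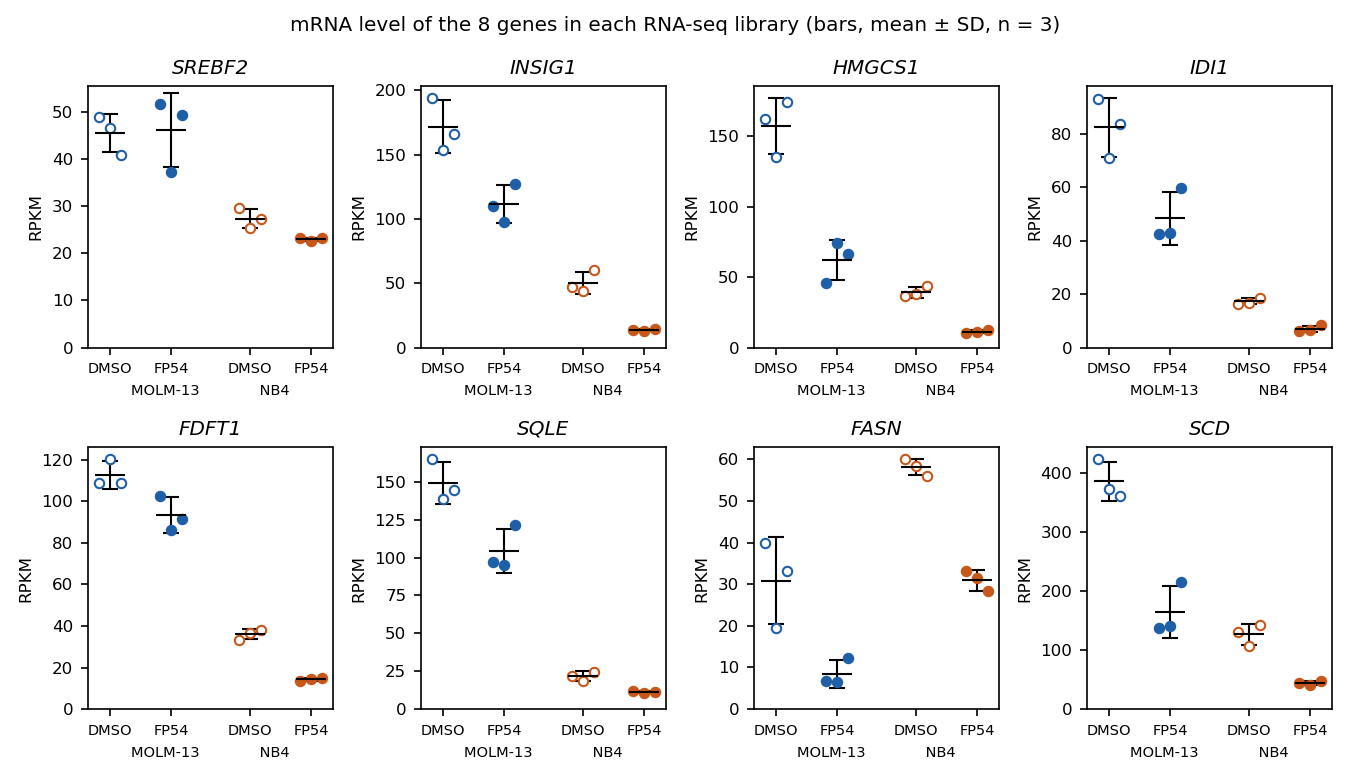
RPKM of the 8 genes in each library (vertical axes, from 0), for MOLM-13 in blue and NB4 in orange, with DMSO as open and FP54 as filled circles and bars for the mean ± SD of 3 libraries. The FP54 circles lie below the DMSO circles in every panel and line except *SREBF2* in MOLM-13, and *FASN* is the only one of the 8 with more RPKM in DMSO-treated NB4 than MOLM-13 cells.

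*SREBF2*, the gene of the factor itself (GRCh38 chr22:41833105-41907306), was 48.8, 46.6 and 40.9 RPKM in the MOLM-13 DMSO libraries and 51.7, 37.3 and 49.4 in the FP54 libraries. The treatments overlapped, and the log2 fold change was 0.01, with a 95% interval from -0.34 to 0.36 (limma adjusted p = 0.969). In NB4 it was 29.5, 25.3 and 27.2 in DMSO and 23.1, 22.6 and 23.2 in FP54 libraries. Every FP54 library of NB4 was below every DMSO library, but by a log2 fold change of -0.25 (SE 0.0850, limma adjusted p = 0.0315) that did not reach the cutoff. The mRNA level says nothing of how much precursor was cleaved.

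*INSIG1*, which retains SCAP and is itself an SREBP target (chr7:155297776-155310235), was 194, 154 and 166 RPKM in MOLM-13 DMSO libraries and 110, 97.4 and 127 in FP54 libraries. Its log2 fold change was -0.62 (SE 0.151, limma adjusted p = 0.0202). In NB4 it was 47.0, 43.8 and 60.3 RPKM in DMSO and 13.9, 13.1 and 14.6 in FP54 libraries. The FP54 libraries of NB4 lay close together and far below the DMSO libraries, and the log2 fold change was -1.84 (SE 0.117, limma adjusted p = 1.22e-06). Without the DMSO library 1, the call in MOLM-13 was lost (-0.53, limma adjusted p = 0.0887).

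*HMGCS1*, whose product makes HMG-CoA on the way to mevalonate (chr5:43287470-43313512), was 162.5, 135 and 174 RPKM in MOLM-13 DMSO libraries and 46.2, 74.2 and 66.4 in FP54 libraries. In NB4 it was 36.4, 37.8 and 43.8 in DMSO and 10.2, 11.4 and 12.6 in FP54 libraries. In both lines every FP54 library was far below the lowest DMSO library. The log2 fold changes were -1.36 (SE 0.188, limma adjusted p = 0.00267) and -1.78 (SE 0.106, limma adjusted p = 7.33e-07).

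*IDI1*, the isopentenyl diphosphate isomerase that makes the starter unit of isoprenoids (chr10:1039152-1049119), was 92.8, 70.8 and 83.7 RPKM in MOLM-13 DMSO libraries and 42.5, 42.8 and 59.7 in FP54 libraries. In NB4 it was 16.4, 16.8 and 18.6 in DMSO and 6.33, 6.54 and 8.37 in FP54 libraries. The groups did not overlap, and FP54 library 3 was the highest of its group in both lines. The log2 fold changes were -0.78 (SE 0.171, limma adjusted p = 0.0142) and -1.28 (SE 0.117, limma adjusted p = 1.26e-05).

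*FDFT1* encodes squalene synthase, the first enzyme that commits farnesyl diphosphate to sterols. It was 109, 121 and 109 RPKM in MOLM-13 DMSO libraries and 103, 86.0 and 91.5 in FP54 libraries. These did not overlap, but the log2 fold change of -0.27 (95% interval from -0.56 to 0.02, limma adjusted p = 0.169) did not pass. In NB4 it was 33.4, 36.6 and 38.2 in DMSO and 13.4, 14.5 and 14.9 in FP54 libraries, a log2 fold change of -1.33 (SE 0.0878, limma adjusted p = 1.46e-06). The NB4 groups were thus far apart where those of MOLM-13 nearly met.

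*SQLE* encodes squalene epoxidase, which oxidizes squalene ahead of the closing of the sterol rings. It was 165, 138 and 144 RPKM in MOLM-13 DMSO libraries and 97.1, 94.8 and 121 in FP54 libraries. This was the call closest to the cutoff, at a log2 fold change of -0.52 (SE 0.147, limma adjusted p = 0.0345). It was lost without DMSO library 1 (-0.45, limma adjusted p = 0.142), without DMSO library 3 (-0.54, limma adjusted p = 0.111), without FP54 library 1 (-0.47, limma adjusted p = 0.133) and without FP54 library 2 (-0.46, limma adjusted p = 0.057), and under quantile normalization (-0.49). In NB4 *SQLE* was 22.1, 18.6 and 24.8 in DMSO and 12.2, 10.7 and 11.3 in FP54 libraries, a log2 fold change of -0.92 (SE 0.113, limma adjusted p = 8.56e-05).

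*FASN*, fatty acid synthase, which builds palmitate (chr17:82078338-82098294), was 40.0, 19.4 and 33.1 RPKM in MOLM-13 DMSO libraries and 6.66, 6.48 and 12.3 in FP54 libraries. Its DMSO libraries spread more, for their mean, than those of any other of the 8 genes (SD 10.5 RPKM on 30.9), yet the lowest was above the highest FP54 library. The log2 fold change was -1.86 (SE 0.295, limma adjusted p = 0.00454). In NB4 *FASN* was 60.0, 58.3 and 56.1 in DMSO and 33.3, 31.4 and 28.3 in FP54 libraries, a log2 fold change of -0.91 (SE 0.0858, limma adjusted p = 1.57e-05).

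*SCD*, the stearoyl-CoA desaturase that puts the double bond into oleate and palmitoleate (chr10:100347233-100364826), had the most RPKM of the 8 genes in every group. It was 423, 371 and 361 in MOLM-13 DMSO libraries and 136, 140 and 214 in FP54 libraries. In NB4 it was 131, 107 and 142 in DMSO and 44.4, 40.6 and 47.6 in FP54 libraries. Neither line showed an overlap, and the log2 fold changes were -1.27 (SE 0.185, limma adjusted p = 0.00339) and -1.51 (SE 0.111, limma adjusted p = 2.98e-06). By mean RPKM of DMSO libraries, *SCD* ranked 66 among the genes of MOLM-13 and 267 among those of NB4.

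**Figure D2:**
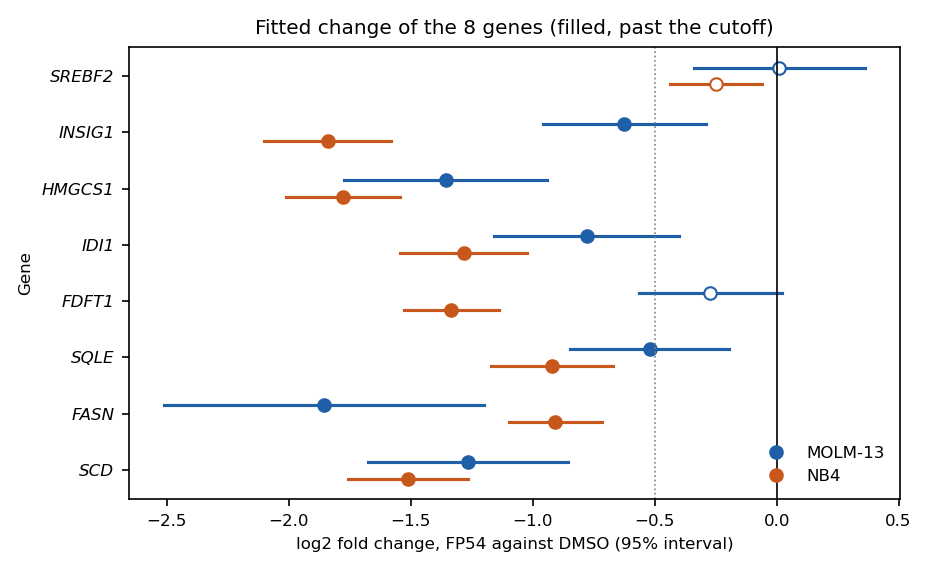
Log2 fold change of FP54 against DMSO on log2(RPKM + 0.1) (horizontal axis) for each of the 8 genes, in MOLM-13 (blue) and NB4 (orange), with lines for the 95% interval of the limma fit, filled circles for genes past the cutoff and a dotted line at -0.5. Only *SREBF2* in both lines and *FDFT1* in MOLM-13 are open, and the intervals of the 2 lines are apart for *INSIG1*, *FDFT1* and, by a small gap, *FASN*.

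No library was the highest of its group for all 8 genes. The RPKM summed over the 8 was 1235, 1056 and 1112 in MOLM-13 DMSO and 593, 579 and 742 in FP54 libraries, with DMSO library 1 the highest of its group for 6 of the 8 and FP54 library 3 for 5. In NB4 the sums were 376, 345 and 411 in DMSO and 157, 151 and 161 in FP54 libraries, with library 3 the highest for 6 of the 8 in both treatments. The sums of the treatments did not overlap in either line.

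The 8 genes stood in a different order in the 2 lines. In DMSO-treated MOLM-13 cells, mean RPKM, a level per gene length, fell from *SCD* (385 ± 33.4, SD, n = 3) through *INSIG1* (171.5 ± 20.6), *HMGCS1* (157 ± 20.0), *SQLE* (149 ± 13.9), *FDFT1* (113 ± 6.86), *IDI1* (82.4 ± 11.1) and *SREBF2* (45.4 ± 4.09) to *FASN* (30.9 ± 10.5). *INSIG1* overlapped *HMGCS1*, and *HMGCS1* overlapped *SQLE*. In DMSO-treated NB4 cells *SCD* again came first (127 ± 17.8), *FASN* came second (58.2 ± 1.97, overlapping *INSIG1* at 50.4 ± 8.72), then *HMGCS1* (39.4 ± 3.93) overlapping *FDFT1* (36.1 ± 2.44), *SREBF2* (27.3 ± 2.11), *SQLE* (21.9 ± 3.09) and *IDI1* (17.3 ± 1.13). In this comparison 7 of the 8 were higher in each MOLM-13 DMSO library than in each NB4 DMSO library, as were 34.7% of the genes tested in both lines. The ratio of the means ran from 1.66 (*SREBF2*) over 3.04 (*SCD*), 3.12 (*FDFT1*), 3.40 (*INSIG1*), 4.00 (*HMGCS1*) and 4.77 (*IDI1*) to 6.83 (*SQLE*). *FASN* was 1.89-fold higher in NB4. After FP54, the lowest MOLM-13 library was still above the highest DMSO library of NB4 for 6 of those 7 genes, the exception being *SCD* (136 against 142 RPKM). The 2 tables were normalized separately, so these levels across lines carry no test.

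The decrease differed between the lines for 2 of the 8 genes, in a test of the difference itself (a limma interaction over the 12 libraries, adjusted p below 0.05, which 14.2% of 8849 genes passed). *INSIG1* fell further in NB4, by -1.22 on the log2 scale (95% interval from -1.64 to -0.79, limma adjusted p = 0.000801), and so did *FDFT1*, by -1.06 (from -1.38 to -0.74, limma adjusted p = 0.000275). For *FASN* the difference ran the other way, 0.95 (from 0.20 to 1.69), and did not pass (limma adjusted p = 0.0858). The differences of *IDI1* (-0.50, from -0.97 to -0.04), *HMGCS1* (-0.42, from -0.91 to 0.07), *SQLE* (-0.40, from -0.80 to -0.000657), *SREBF2* (-0.26, from -0.65 to 0.13) and *SCD* (-0.25, from -0.74 to 0.25) did not pass either, with adjusted p between 0.144 and 0.514 in limma, and their intervals do not show that the lines responded alike. Under median-ratio scaling *IDI1* (-0.68, limma adjusted p = 0.0365) and *SQLE* (-0.57, limma adjusted p = 0.0389) passed too, and under quantile normalization *FASN* (1.04, limma adjusted p = 0.0367).

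The decrease extended along the sterol route in both lines. Of 21 enzyme genes from acetyl-CoA to cholesterol or an isoprenoid side branch, the 4 members included, 15 were called lower and 0 higher in MOLM-13. Over all tested genes, 9.04% were called lower and 9.30% higher there. The median log2 fold change of the list was -0.76, against 0.00 over all tested genes. In NB4, 15 of 20 tested were lower and 1 higher, against 10.7% and 18.6% of all tested genes, with a median of -0.88 against 0.07. In all, 13 genes were called lower in both lines, 86.7% of the calls of each, a share that was not computed over all lower calls. Without the members the counts were 12 of 17 and 11 of 16. The list was written with earlier results of these data known, so its counts are a description.

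Early in the route, *ACAT2*, which joins acetyl-CoA units, had log2 fold changes of -1.08 (SE 0.143, limma adjusted p = 0.00228) and -1.37 (SE 0.0876, limma adjusted p = 1.25e-06) in MOLM-13 and NB4. *MVD*, mevalonate diphosphate decarboxylase, fell by 0.99 and 0.84. Late in the route, both lines had decreases of the C-4 methyl oxidase gene *MSMO1* (-0.98 in each), the C-4 demethylation gene *NSDHL* (-0.81 and -1.08) and *DHCR7*, which makes cholesterol from 7-dehydrocholesterol (-0.85 and -1.49). *TM7SF2*, a sterol C-14 reductase, was the only gene of the list called higher, in NB4 (0.62, limma adjusted p = 0.00216). That call was lost with a pseudocount of 1 (0.44), under median-ratio scaling (0.43) and under quantile normalization (0.29). These scalings moved the median of all tested genes in NB4 from 0.07 to -0.13 and -0.03, so for the increases in NB4 below their values are given where a call was lost.

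**Figure D3:**
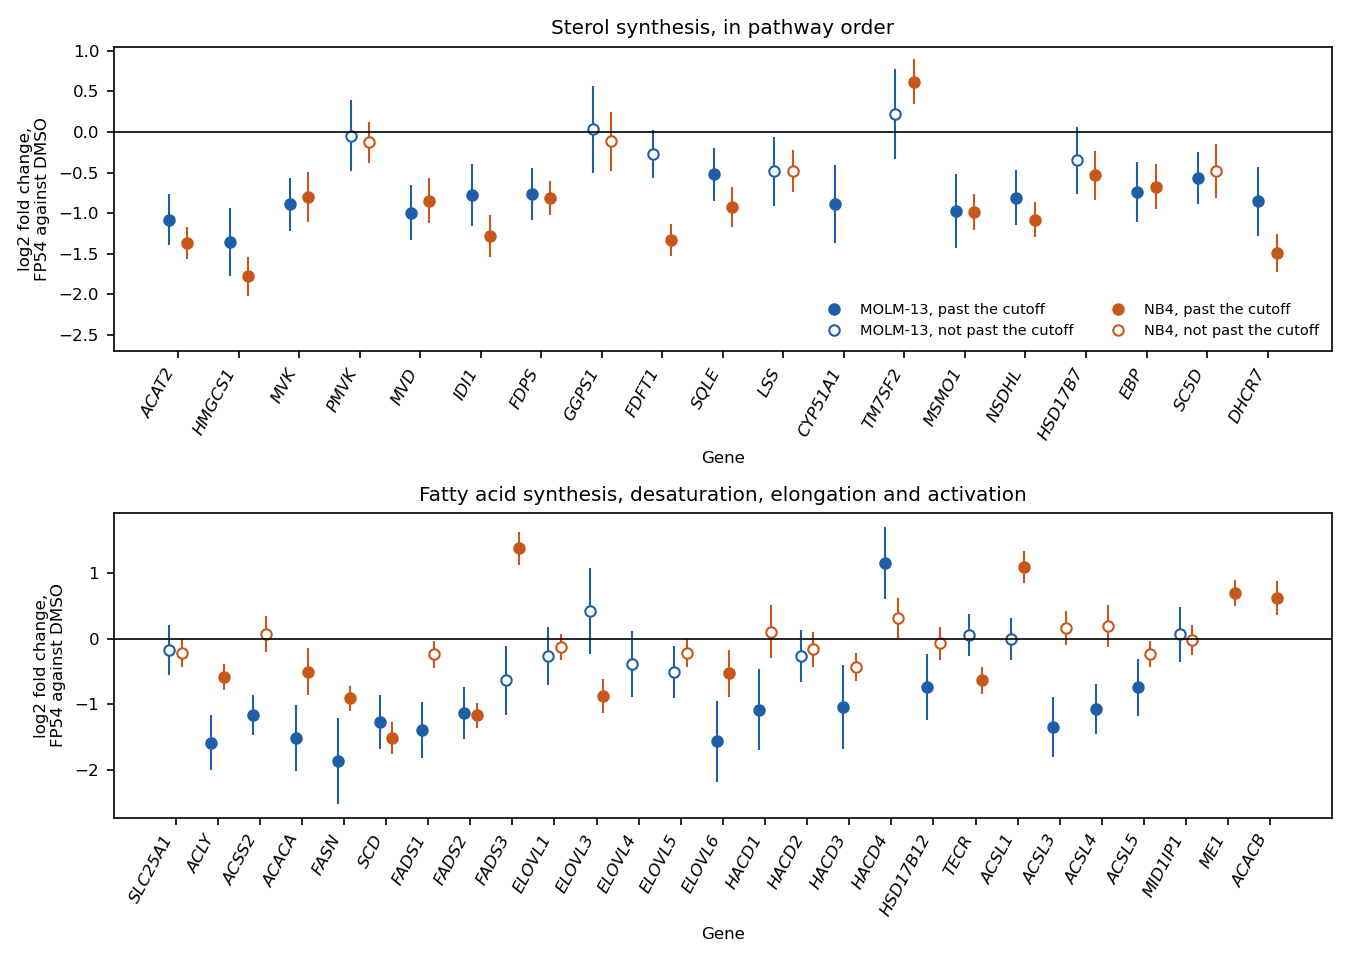
Log2 fold change of FP54 against DMSO (vertical axes, with 95% limma intervals) for 19 of the sterol synthesis genes in pathway order (top) and the tested fatty acid genes (bottom), in MOLM-13 (blue) and NB4 (orange), with filled circles for genes past the cutoff. In the top panel 13 circles of each line are filled below 0, and in the bottom panel 14 of MOLM-13 and 8 of NB4.

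Most tested genes of SREBP control and sterol uptake were not called, 11 in MOLM-13 and 10 in NB4. Over all tested genes, 9.04% were called lower and 9.30% higher in MOLM-13, and 10.7% and 18.6% in NB4. With so few genes, the counts of this list are a description. Of 14 tested in MOLM-13, 2 were lower (*INSIG1* and *SREBF1*) and 1 higher (*NPC2*), and of 16 in NB4, 3 were lower (*INSIG1* and *SREBF1* among them) and 3 higher (*INSIG2*, *NPC1* and *NPC2*). *SREBF1* went from 15.7 to 10.3 mean RPKM in MOLM-13 (-0.63, SE 0.182, limma adjusted p = 0.0387) and from 9.42 to 5.49 in NB4 (-0.77, SE 0.0933, limma adjusted p = 8.31e-05). Its call in MOLM-13 was lost without any 1 of DMSO libraries 1, 2 and 3 or FP54 library 2, with adjusted p up to 0.111 in limma. *SCAP* had log2 fold changes of 0.11 and -0.10 and passed in neither line. *INSIG2*, the paralog of *INSIG1*, had -0.44 in MOLM-13 (limma adjusted p = 0.0630) and 0.57 in NB4 (limma adjusted p = 0.0107), and the lines differed by 1.01 (limma adjusted p = 0.00831; without the libraries numbered 1, 1.09 and limma adjusted p = 0.0644). The NB4 call of *INSIG2* was lost without DMSO library 2 (0.47) or 3 (0.59) or FP54 library 3 (0.39), and under median-ratio scaling (0.37) and quantile normalization (0.45), where that of the lysosomal cholesterol transporter *NPC1* was lost too (0.57, against 0.37 and 0.36). With a pseudocount of 1 the *NPC1* call was lost as well (0.47). *NPC2*, its soluble partner, rose in both lines (0.71 and 0.78), but in MOLM-13 not without DMSO library 2 or 3 or FP54 library 1 or 3, with adjusted p from 0.0503 to 0.1415 in limma.

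The fatty acid genes split by cell line. Of 25 tested in MOLM-13, 14 were lower and 1 higher (median -0.74), and of 26 in NB4, 8 were lower and 4 higher (median -0.19). Over all tested genes, 9.04% were lower and 9.30% higher in MOLM-13, and 10.7% and 18.6% in NB4. The higher calls of the list were not above these shares in either line. In both lines 6 were lower, *FASN* and *SCD* among them. These were 42.9% of the MOLM-13 and 75.0% of the NB4 calls, shares again not computed over all lower calls. The interaction passed for 11 of 24 genes of this list, 9 with the more negative value in MOLM-13 and 2 with the more negative value in NB4, for 1 of 20 sterol synthesis genes, *FDFT1*, and for 3 of 14 SREBP control genes, against the 14.2% above. With median-ratio scaling 11 fatty acid and 5 sterol genes passed, with quantile normalization 12 and 3, and with all libraries numbered 1 left out 5 and 1. The share of all genes that passed was not computed under these settings, so the 14.2% of the main fit is no base for them.

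At the head of the fatty acid route, *ACLY*, which makes cytosolic acetyl-CoA from citrate, went from 74.5 to 24.9 mean RPKM in MOLM-13 (-1.58, SE 0.190, limma adjusted p = 0.00168) and from 62.5 to 41.7 in NB4 (-0.58, SE 0.0890, limma adjusted p = 0.000375), a difference of 1.00 (limma adjusted p = 0.00815) that was 0.72 without the libraries numbered 1 (limma adjusted p = 0.125). Under quantile normalization *ACLY* in NB4 was at -0.43 and not past the cutoff. *ACACA*, acetyl-CoA carboxylase, fell by 1.51 in MOLM-13 (SE 0.227, limma adjusted p = 0.00385) and lay just past the cutoff in NB4 at -0.50 (SE 0.159, limma adjusted p = 0.0225), a call lost without DMSO library 1 or 3 or any 1 of the FP54 libraries (-0.36 to -0.51). That NB4 call was also lost with a pseudocount of 1 (-0.46) or 0.01 (-0.51) and with no filter or a mean RPKM of at least 5. Without the eBayes trend, or with the robust option of eBayes, it was lost too. The lines differed by 1.01 (limma adjusted p = 0.0321), but not past the threshold without the libraries numbered 1 (0.86, limma adjusted p = 0.235) or 2 (0.80, limma adjusted p = 0.0997). With a pseudocount of 1 the difference was 0.64 and did not pass either (limma adjusted p = 0.0750). *ELOVL6*, which elongates palmitate, fell by 1.56 in MOLM-13 and had -0.53 in NB4, where the call was lost without DMSO library 1 (-0.45) or 3 (-0.44) and without FP54 library 1 (-0.48), 2 (-0.56) or 3 (-0.55), with a pseudocount of 1 (-0.34) and with no filter. The difference of 1.03 between the lines did not pass (limma adjusted p = 0.0641). It did with a pseudocount of 1 (0.89, limma adjusted p = 0.0264) and without the libraries numbered 3 (1.35, limma adjusted p = 0.0497). *FADS2*, the delta-6 desaturase, fell by 1.13 in MOLM-13 and 1.16 in NB4, and the difference of -0.03 had an interval from -0.46 to 0.40.

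No gene of the list was called in opposite directions in the 2 lines, and some were called in 1. *FADS3* had -0.64 in MOLM-13 (limma adjusted p = 0.0837) and rose by 1.38 in NB4 (limma adjusted p = 6.59e-06), a difference of 2.01 (limma adjusted p = 0.000125). The long-chain acyl-CoA synthetase gene *ACSL1* had -0.01 in MOLM-13 and rose by 1.09 in NB4, a difference of 1.10 (limma adjusted p = 0.000958). *ELOVL3* and *TECR*, both of fatty acid elongation, fell in NB4 (-0.87 and -0.63) with 0.42 and 0.05 in MOLM-13, and these lines differed by -1.29 (limma adjusted p = 0.0217) and -0.69 (limma adjusted p = 0.0129). Neither difference passed without the libraries numbered 1 (limma adjusted p = 0.124 and 0.0944) or 3 (limma adjusted p = 0.103 and 0.150). *HACD4*, a gene of the dehydratase step of elongation, rose in MOLM-13 (1.15, limma adjusted p = 0.0134) and had 0.31 in NB4, a difference of -0.84 that did not pass (limma adjusted p = 0.0751). *ME1*, malic enzyme, a source of NADPH, rose in NB4 (0.69, limma adjusted p = 0.000149) and was too low to be tested in MOLM-13; under median-ratio scaling it was not past the cutoff (limma adjusted p = 0.000804).

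**Figure D4:**
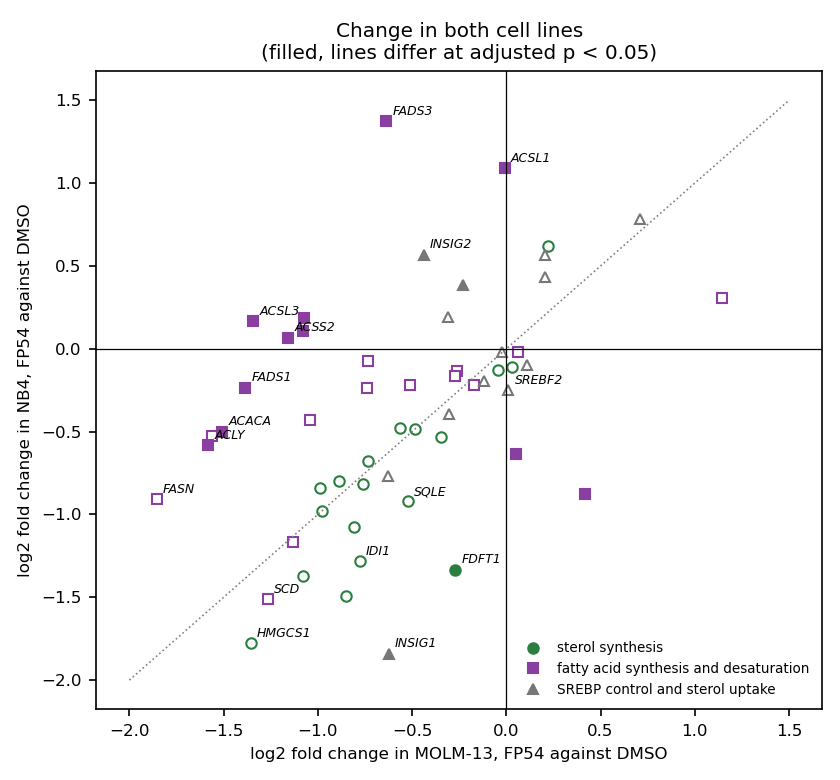
Log2 fold change of FP54 against DMSO in MOLM-13 (horizontal axis) and in NB4 (vertical axis) for 18 sterol synthesis, 13 SREBP control and 24 fatty acid genes tested in both lines, with filled symbols where the lines differed at an adjusted p below 0.05 and a dotted line where both are equal. Of the sterol synthesis genes shown, 1 of 18 is filled, and 11 of 24 fatty acid genes are, 9 of these above the dotted line.

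Each of the 8 genes was also compared with all others by its pattern over the 12 libraries, as the root mean square difference of log2(RPKM + 0.1) centred on the DMSO mean of each line. Among the 3 nearest genes of each, 24 places in all, 6 were held by genes of the 3 lists above, which make up 0.655% of the 8849 genes tested in both lines. Among them were *DHCR7* nearest to *INSIG1* (0.236) and to *IDI1* (0.146), *SCD* among those of *HMGCS1* (0.255) and *ACAT2* among those of *SCD* (0.234). The nearest gene to *SREBF2* was *UGDH* (0.0622), to *HMGCS1* *PNP* (0.159), to *FDFT1* *CITED2* (0.163), to *FASN* *GPR84* (0.123) and to *SCD* *MNDA* (0.174). The points share libraries and treatment, so a small value is a likeness of pattern and no test. The lists were also written with earlier results of these data known, so the 6 places are a description.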

How the data were processed

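Of the 22 samples in the labels, 12 were used, all RNA-seq. The other 10 (m6A-seq and polysome-seq of MOLM-13) are not analysed here. Column names give treatment and replicate in both tables, so the cell line of a column rests on its table's name. The authors selected poly(A) RNA, and reads were trimmed with Cutadapt 4.8, deduplicated with Clumpify, aligned to hg38 with STAR 2.7.11b and counted with featureCounts 2.0.3 on protein-coding GENCODE genes, and the deposited values are RPKM. Whether strand was used in counting is not given in the sources used here. *FDFT1*, *HMGCS1*, *IDI1*, *SREBF2*, *FADS1* and *FADS2* overlap genes on the other strand.

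The test the study used needs counts, so log2(RPKM + 0.1) was fitted per line with limma 3.58.1 in R 4.3.3 (eBayes with trend, mean RPKM at least 1), with Benjamini-Hochberg adjustment over all tested genes and the study's cutoff. Positions come from a later GENCODE release than the authors', on GRCh38. Multiplied by its exon lengths, 98.7% to 99.3% of values of up to 30 reads came out whole within 0.05 reads, which gave the depths. Tables and figures used Python 3.11.15, numpy 2.4.6, pandas 2.3.3 and matplotlib 3.10.9. On simulated data, a log2 change of 1 given to 195 genes was called in 88.7% of them in MOLM-13, and one given to 191 genes in 99.0% in NB4, with 67 and 15 unchanged genes called as well.

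The members and lists were chosen with earlier results of these data known. Lists were written from general knowledge. Named are the 8 members, *SREBF1*, *SCAP*, *INSIG2*, *ACACA* and *ACLY*, and per line and list up to 3 genes with the largest decrease and 3 with the largest increase past the cutoff, plus the 3 nearest in pattern. Some genes of this rule are not reported here, though the counts of the lists include them. *NR1H3*, *FTO* and the markers named fall outside this rule. Alternatives were other pseudocounts and filters, 2 scalings, a replicate block, other eBayes options, voom on recovered reads, other cutoffs, and each library left out.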

Additional observations from a re-analysis of the deposited data

Results flagged for a closer look

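These named genes changed differently in the 2 cell lines by the limma interaction test (NB4 minus MOLM-13 log2 fold change, adjusted p below 0.05). Of the 8 genes, *INSIG1* (-1.22) and *FDFT1* (-1.06) fell further in NB4. Of the other named genes, *ELOVL3* (-1.29), *TECR* (-0.69) and the peroxisomal oxidation gene *HSD17B4* (-0.91) had the lower value in NB4. The higher value in NB4 was that of *INSIG2* (1.01), *ACLY* (1.00), *ACACA* (1.01), *FADS3* (2.01), *ACSL1* (1.10) and *MYLIP* (1.19). Without the libraries numbered 1, the differences of *INSIG2*, *ACLY*, *ACACA*, *HSD17B4*, *ELOVL3* and *TECR* did not pass (limma adjusted p from 0.0644 to 0.235). Nor did *ACACA* without those numbered 2 (limma adjusted p = 0.0997) or with a pseudocount of 1 (limma adjusted p = 0.0750). Neither did *HSD17B4*, *ELOVL3* and *TECR* without those numbered 3 (limma adjusted p from 0.0858 to 0.150). NB4 differs from MOLM-13 in its FP54 libraries, each shallower than its DMSO libraries and with 0.0509 to 0.0544 RPKM over olfactory receptor genes. The part of these in the differences was not tested.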

How the results depend on the processing

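No called value of the 8 genes turned its direction, while that of *SREBF2* in MOLM-13, not called, ran from -0.08 to 0.16. The median log2 fold change of all tested genes in NB4 turned from 0.07 to -0.13 under median-ratio scaling, -0.03 under quantile normalization and -0.02 at a mean RPKM of at least 5. Over 19 settings, 142 of 152 values of the 8 genes in MOLM-13 and 149 of 152 in NB4 kept their side of the cutoff, with 10 and 2 weaker and, in NB4, 1 stronger. With both an adjusted p below 0.05 and a change of 1 or more on the log2 scale, 3 of the 8 genes were lower in MOLM-13. In NB4 the calls of *SQLE* (-0.92) and *FASN* (-0.91) were lost by this rule. Over all tested genes it called 299 lower and 236 higher of 9710 in MOLM-13, and 138 and 674 of 9853 in NB4. Of the other pathway genes, 11 were lower and 1 higher in MOLM-13 and 5 lower and 2 higher in NB4, against 25, 2, 19 and 8 at the main cutoff. The 2 higher calls in MOLM-13 became 4 with no filter, 1 at a mean RPKM of at least 5, and 1 to 2 with 1 library left out. The 8 higher calls in NB4 became 5 with a pseudocount of 1, 4 at a mean RPKM of at least 5, 3 under median-ratio scaling and 4 under quantile normalization. Median-ratio scaling also raised the members that differed between lines from 2 to 4, and over all tested genes of NB4 it turned 1050 lower and 1834 higher calls into 2009 and 1184, while no filter gave 4967 higher. The cause was not tested. Subtracting the olfactory level, chosen after seeing the data, could hardly move genes at the levels of the 8 and is no support for them.

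Whether replicate numbers pair the libraries is not given, and correlations of deviations from means of 3 libraries cannot settle it. Same-numbered deviations correlated at -0.262, -0.134 and -0.0577 in MOLM-13. In NB4 they correlated at -0.143, 0.0748 and 0.123, and 1 number, against 0 in MOLM-13, matched itself best. With the replicate block, 5 of the 8 genes were lower in MOLM-13 (*SQLE* lost, limma adjusted p = 0.0624) and 7 in NB4, the other pathway genes had 25 lower and 2 higher and 18 lower and 8 higher calls, and 2 members differed between lines. The shallowest library, 5829730 reads, limits genes of few reads, not the 8 genes.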

Other observations

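Lists of sterol export and storage and of fatty acid oxidation held no gene called lower in either line at the cutoff. Over all tested genes 9.04% were called lower in MOLM-13 and 10.7% in NB4. At such shares lists of this size would hold few lower calls, so their absence is a description. Of the genes driven by the oxysterol receptor LXR or acting in sterol export and storage, 3 of 10 tested were higher in MOLM-13 and 4 of 9 in NB4, against 9.30% and 18.6% of all tested genes. *APOE*, the apolipoprotein that carries cholesterol out of cells, was higher in both, at 4.20 and 8.23 mean RPKM in MOLM-13 (0.95, limma adjusted p = 0.0377) and 0.800 and 2.99 in NB4 (1.82, limma adjusted p = 6.91e-05). In NB4 its DMSO mean lay below 1 RPKM, and it passed the filter on low values only through its FP54 libraries. Its rise there, among the 4 of 9 above, is thus a description and no support. The MOLM-13 call of *APOE* was lost with no filter on low values (limma adjusted p = 0.0899) and under median-ratio scaling (limma adjusted p = 0.053). It was also lost without DMSO library 1 or FP54 library 1 or 2 (limma adjusted p up to 0.150). *CYP27A1*, a sterol 27-hydroxylase, rose in MOLM-13 from 30.6 to 86.4 mean RPKM (1.49, limma adjusted p = 0.00168), as did *APOC1* (0.61, lost without DMSO library 2 or 3 or FP54 library 1 or 3, with limma adjusted p from 0.0625 to 0.136). *MYLIP*, an LXR target that encodes a ubiquitin ligase, rose in NB4 from 10.5 to 22.4 (1.07, limma adjusted p = 8.73e-05), and the cholesterol exporter *ABCA1* rose by 0.67 there, but was at 0.47 and 0.48 under the 2 scalings and not past the cutoff, nor without DMSO library 2 (0.42) or any 1 of the FP54 libraries (0.64 to 0.72). With no filter on low values the *ABCA1* call of NB4 was lost as well (limma adjusted p = 0.028). *NR1H3*, the gene of LXR-alpha, had 0.17 and 0.33 and passed the cutoff in neither line.

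Of 21 tested fatty acid oxidation genes, 4 were higher in MOLM-13, against 9.30% of all tested genes, and 3 in NB4, a smaller share than the 18.6% there. In either line 0 were lower, against 9.04% and 10.7% of all tested genes. *ACADS*, short-chain acyl-CoA dehydrogenase, was higher in both (1.19 and 0.69). In MOLM-13 *HSD17B4* (1.07) and the carnitine carrier *SLC25A20* (0.88) were higher too, and in NB4 the regulator *PPARA* (0.95) and *ACADVL* (0.66). Median-ratio scaling put *ACADS* (0.50) and *ACADVL* (0.46) of NB4 short of the cutoff and called 5 genes of the list lower there. Quantile normalization also put *ACADS* of NB4 short of the cutoff (0.46). By an adjusted p below 0.05 alone, with no limit on size, 5 genes of the list were lower in NB4, against 22.0% of all tested genes.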
